A study of Rattus norvegicus with 6 samples.

Results

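The 10 genes described here encode factors by which marrow stromal cells keep blood stem cells, feed early lymphoid and myeloid cells and govern osteoclasts. They were named by function, with earlier results of these data known, as Cxcl12, Kitl, Lepr, Vcam1, Angpt1, Csf1, Il7, Foxc1, Tnfsf11 and Tnfrsf11b. All were looked up by symbol among the 37209 rows of the deposited count table. Kitl had no row of that name and was read from the row Kitlg, the current RefSeq symbol of the same gene, so that all 10 had a row. RNA was sequenced from primary mesenchymal stem cells of rat femur marrow (BMSCs), wild type, as 3 libraries from a 6 h exposure to cigarette smoke extract (CSE) at 3% and 3 libraries of control cells kept for 6 h in serum-free medium. The sources used here give neither the age and strain of the rats nor the diluent of the extract. No label ties a library to its own animal or culture, so a p-value reflects spread among these 6 libraries alone and may be technical in part.

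In the marrow, a network of perivascular stromal cells surrounds the sinusoids and holds blood stem cells in place. CXCL12 (SDF-1) attracts and retains cells that carry CXCR4, and the membrane-bound and soluble forms of stem cell factor, made from Kitl, maintain cells that carry KIT. In mice these stromal cells are marked by the leptin receptor LEPR and depend on the forkhead factor FOXC1. VCAM1 anchors blood cells through the integrin VLA-4, ANGPT1 signals through TIE2, and IL7 supports B cell precursors. CSF1 (M-CSF) and RANKL, made from Tnfsf11, are both needed to form osteoclasts, and osteoprotegerin, made from Tnfrsf11b, is the secreted decoy that binds RANKL.

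Library totals lay between 19433637 and 22589327 counts with CSE and between 15958621 and 18651194 in the control. Levels are counts per 1000000 counts after TMM scaling (CPM), which corrects for depth and composition but not for gene length, so levels are not compared between genes. Differences are log2 ratios, CSE over control, given ± SE from edgeR's quasi-likelihood test, with p-values adjusted over all 13390 genes tested and a threshold of 0.05. A very large share of the transcriptome differed at 6 h: 73.9% of tested genes passed, 36.3% higher and 37.5% lower, and in 75.8% the CSE and control libraries did not overlap. Changes of at least 2-fold were called in 25.2% of tested genes, 10.7% higher and 14.4% lower. A call on any 1 gene was therefore common.

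The cells carried mesenchymal transcripts throughout, with all 9 markers of stromal cells measured. Among them, Col1a1 averaged 26096 ± 666 CPM with CSE and 28797 ± 1889 CPM in the control (SD, n = 3). Of the 9, 2 were higher (Cd44 and Thy1), 5 were lower and 2 did not pass. The lower were Pdgfra (log2 -0.97 ± 0.06), Prrx1 (-0.95 ± 0.05), Nt5e (-0.90 ± 0.17), Pdgfrb (-0.87 ± 0.05) and Col1a1 (-0.14 ± 0.04). The largest edgeR adjusted p of these was 0.0087, that of Col1a1. The call of Col1a1 ended without CSE replicate 2 (edgeR adjusted p = 0.0653), and that of Thy1 with total counts alone (edgeR adjusted p = 0.132). Transcripts of blood cells were present as well. Of 12 markers of blood cells and macrophages 11 were tested, Cd163 was at 0 in every library, and their summed level was 511.6 to 538.8 CPM with CSE and 545.8 to 558.7 CPM in the control. Of the 11, 3 were higher, 3 lower and 5 did not pass. Laptm5, a lysosomal protein gene of blood cells, averaged 100.1 ± 1.99 CPM with CSE and 67.4 ± 3.93 CPM in the control (SD, n = 3; log2 0.57 ± 0.05, edgeR adjusted p = 5.0e-08). Tyrobp and Cd68 were the other higher markers, and neither call held under upper-quartile scaling or total counts alone. Tyrobp kept its call in 11 of 13 alternatives, and Cd68 (edgeR adjusted p = 0.045) in only 4 of 13. The monocyte receptor gene Cd14 averaged 16.5 ± 1.14 CPM with CSE and 45.2 ± 3.97 CPM in the control (SD, n = 3; log2 -1.45 ± 0.08, edgeR adjusted p = 3.2e-11). The pan-leukocyte gene Ptprc averaged 49.3 ± 0.819 CPM with CSE and 61.9 ± 2.30 CPM in the control (SD, n = 3; log2 -0.33 ± 0.06, edgeR adjusted p = 4.5e-05), and Csf1r is given below. Endothelial markers summed to 8.18 to 10.65 CPM with CSE and 17.9 to 19.7 CPM in the control, with Pecam1, Cdh5 and Kdr below 0.5 CPM on average in both groups and Emcn at 0. In these bulk libraries fewer cells of a type and less RNA per cell cannot be told apart, and the part of blood or endothelial cells in the results below was not tested.

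Promoter sequence was at hand in RefSeq (build GRCr8) for 6 of the 10 genes, Cxcl12, Kitl, Lepr, Vcam1, Foxc1 and Tnfsf11, as windows from 250 bases before to 50 after the start of transcription. Shown are the 2 major stem cell ligands, whose levels moved in opposite directions, and the adhesion gene Vcam1. Capitals mark matches on either strand to 5 motifs of smoke and stress signalling: the dioxin response core GCGTG bound by the aryl hydrocarbon receptor, the antioxidant response element TGACNNNGC, the AP-1 site TGANTCA, the heat shock element GAANNTTC, and the NF-kB consensus GGGRNWYYCC. In these letters R is A or G, Y is C or T, W is A or T, and N is any base.
Cxcl12 promoter, chr4:152060531-152060830, plus strand: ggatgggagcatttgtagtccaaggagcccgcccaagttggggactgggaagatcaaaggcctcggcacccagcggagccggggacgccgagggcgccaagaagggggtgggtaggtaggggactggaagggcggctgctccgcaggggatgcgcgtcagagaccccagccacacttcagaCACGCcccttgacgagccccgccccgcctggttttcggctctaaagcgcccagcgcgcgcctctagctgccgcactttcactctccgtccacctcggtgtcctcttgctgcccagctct
Kitlg promoter, chr7:36782410-36782709, plus strand: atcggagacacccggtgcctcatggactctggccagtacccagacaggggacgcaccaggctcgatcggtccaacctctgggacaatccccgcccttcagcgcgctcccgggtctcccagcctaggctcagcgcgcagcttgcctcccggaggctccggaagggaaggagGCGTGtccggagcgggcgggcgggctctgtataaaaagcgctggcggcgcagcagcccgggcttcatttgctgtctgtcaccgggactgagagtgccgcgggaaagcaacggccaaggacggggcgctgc
Vcam1 promoter, chr2:206742734-206743033, minus strand: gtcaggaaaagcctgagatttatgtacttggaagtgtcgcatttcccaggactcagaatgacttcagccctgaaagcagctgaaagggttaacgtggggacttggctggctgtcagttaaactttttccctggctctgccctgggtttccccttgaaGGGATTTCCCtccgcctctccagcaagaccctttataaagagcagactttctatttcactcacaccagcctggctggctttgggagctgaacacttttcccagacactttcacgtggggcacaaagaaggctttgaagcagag

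The capitals in the Cxcl12 and Kitl windows are single copies of the dioxin response core, at bases -69 to -65 on the minus strand in Cxcl12 and at -80 to -76 on the plus strand in Kitl, counted from the start of transcription. The core is short and was found in 29.7% of all 33469 promoter windows of this length, and in 4 of the 6 niche factor windows, those of Foxc1 and Tnfsf11 included. The Cxcl12 and Kitl windows were rich in G and C, 66.7% and 68.0%, against a median of 51.7% over all windows. The capitals in the Vcam1 window are 1 NF-kB consensus match, at bases -93 to -84, which reads as a match on both strands and overlaps no other motif searched. Only exact matches to the letters are marked. The similar stretch gggtttcccc shortly before it departs from them and is unmarked, so the number of NF-kB sites in this window is not settled. That consensus occurred in 4.2% of all windows and in none of the other 5 niche factor windows. The antioxidant element (12.1% of all windows), the AP-1 site (7.3%) and the heat shock element (8.6%) were found in none of the 6. A match is a run of letters only, and binding was not measured.

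Of the 10 genes, 3 were higher with CSE (Kitl, Il7 and Vcam1), 5 were lower (Cxcl12, Tnfrsf11b, Angpt1, Foxc1 and Csf1), Lepr did not pass, and Tnfsf11 had no count. Vcam1 entered the test only through the CSE libraries, since none of its control libraries reached the minimum of 0.525 CPM that the filter on low counts set, so a difference was built into its being tested. The other 8 that were tested reached that minimum in all 6 libraries. In each of the 8 genes that passed, every CSE library lay on one side of every control library. Il7 and Vcam1 were at least 2-fold higher, and Cxcl12, Tnfrsf11b and Angpt1 at least 2-fold lower. Calls and separated libraries were common in the background as well, at 73.9% and 75.8% of all tested genes, so the counts do not set the 10 genes apart. The median log2 fold change of the 9 tested was -0.51, against -0.02 over all genes tested. Because the genes were named with earlier results of these data known, the gap between these medians is description only.

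**Figure D1:**
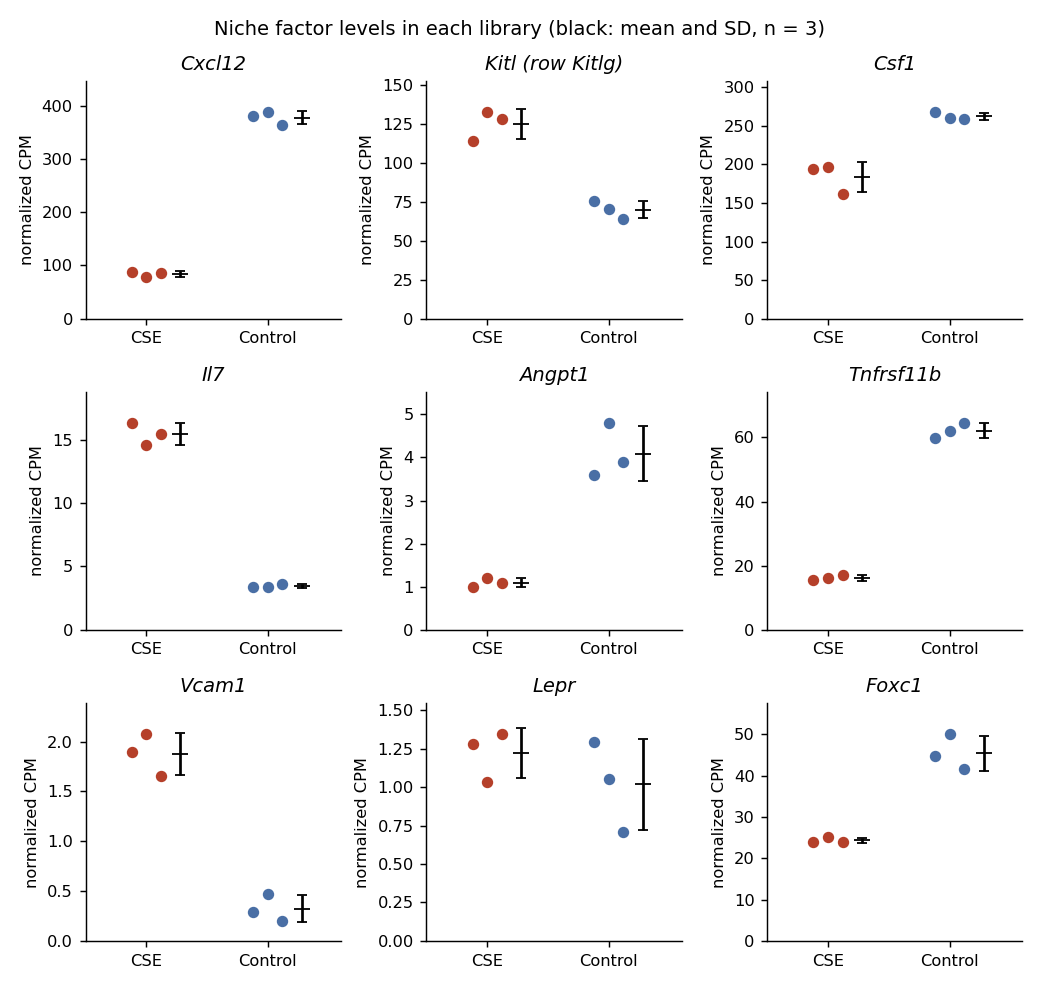
Normalized CPM of 9 niche factors in each library (points; CSE left in red, control right in blue), with the mean and SD of each group in black (n = 3); each panel has its own axis from 0. The groups are apart in every panel but that of Lepr; Tnfsf11, with no count in any library, is not drawn.

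Cxcl12, the chemokine that retains blood stem cells in the marrow, showed the largest fall of the 10. It had 88.4, 77.4 and 86.2 CPM in the CSE libraries, against 380.4, 388.4 and 364.6 CPM in the control libraries. The lowest control library lay far above the highest CSE library. The level was 4.49-fold lower with CSE, at 84.0 ± 5.80 CPM against 377.8 ± 12.1 CPM in the control (SD, n = 3), or log2 -2.17 ± 0.06 (edgeR adjusted p = 9.0e-16). Only 3.03% of tested genes had a lower fold change. The estimate rests on 4951 counts with CSE and 21055 in the control.

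The genes of the CXCL12 receptors differed in opposite directions. Cxcr4, the signalling receptor, had 32.3, 32.2 and 30.5 CPM with CSE, against 5.77, 4.59 and 4.49 CPM in the control, and rose 6.43-fold (log2 2.68 ± 0.10, edgeR adjusted p = 1.9e-13). Ackr3, read from the row Cxcr7, encodes the atypical receptor that scavenges CXCL12. It had 1.99, 2.07 and 1.24 CPM with CSE, against 6.07, 7.17 and 6.05 CPM in the control, and fell by 1.86 ± 0.20 on the log2 scale (edgeR adjusted p = 2.2e-07). Ligand and scavenger were lower while the receptor was higher, and no library of one group crossed into the other. Cxcr4 is also a gene of blood cells, whose 11 tested markers went both ways (3 higher, 3 lower and 5 not past the threshold). Which cells carried Cxcr4 was not tested. Dpp4, the protease that inactivates CXCL12, was below the filter.

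Kitl, the gene of stem cell factor, moved the other way from Cxcl12. It had 114, 133 and 128 CPM with CSE, against 75.3, 70.6 and 64.0 CPM in the control. The 3 CSE libraries were all above the 3 control libraries, and the level was 1.79-fold higher with CSE at 125 ± 9.59 CPM against 70.0 ± 5.67 CPM in the control (SD, n = 3). On the log2 scale this was 0.84 ± 0.07 (edgeR adjusted p = 3.8e-09), from 7321 counts with CSE and 3886 in the control. The table gives 1 count per gene, so the membrane-bound and soluble splice forms cannot be told apart. Kit, its receptor on blood stem and mast cells, had 1 count over the CSE libraries and 6 over the control libraries and was not tested. Adam17, which encodes a protease that sheds membrane-bound stem cell factor in mice, was higher at 178 ± 10.1 CPM with CSE against 88.9 ± 6.42 CPM in the control (SD, n = 3; log2 1.00 ± 0.06, edgeR adjusted p = 7.5e-11).

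Il7, the lymphoid cytokine gene, showed the rise with the smallest p of the 10. It had 16.3, 14.6 and 15.5 CPM with CSE, against 3.42, 3.37 and 3.63 CPM in the control. The control libraries lay within a narrow band well below every CSE library, and the level was 4.44-fold higher (log2 2.15 ± 0.12, edgeR adjusted p = 3.8e-11). Il7r, which encodes the receptor chain for IL7 and for the cytokine TSLP, had 60.1, 65.2 and 65.0 CPM with CSE, against 4.95, 4.27 and 4.54 CPM in the control. It rose 13.8-fold (log2 3.79 ± 0.08, edgeR adjusted p = 1.7e-16), and again no library of one group reached the other. Lymphoid and macrophage lineage cells can express Il7r, and the cells that carried it here are not known.

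Csf1 encodes the growth factor of macrophages and osteoclast precursors, and its difference was the smallest among the genes that passed. It had 194, 196 and 162 CPM with CSE, against 268, 260 and 260 CPM in the control. The groups did not overlap, and the third CSE library was the lowest of all. The level was 1.43-fold lower with CSE (log2 -0.51 ± 0.06, edgeR adjusted p = 7.7e-07). Csf1r, its receptor gene and a macrophage marker, had 115, 112 and 124 CPM with CSE, against 139, 139 and 139 CPM in the control, and fell by 0.25 ± 0.05 on the log2 scale (edgeR adjusted p = 2.6e-04). Il34, the other CSF1R ligand, had 34 counts over the CSE libraries and 10 over the control libraries and was not tested.

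Angpt1, the TIE2 ligand that stabilises vessels and has been tied to stem cell quiescence in mice, was a low transcript that was lower still with CSE. It had 0.996, 1.20 and 1.09 CPM with CSE, against 3.59, 4.80 and 3.88 CPM in the control. Every CSE library was below every control library, and the level was 3.74-fold lower (log2 -1.90 ± 0.23, edgeR adjusted p = 9.2e-07). With 64 counts in the CSE group its error is larger than that of the abundant genes. On the RefSeq assembly 1 gene with its own row overlaps Angpt1, and how shared reads were assigned is not known. Tek, the gene of TIE2, averaged 3.23 ± 0.340 CPM with CSE and 5.89 ± 0.529 CPM in the control (SD, n = 3; log2 -0.87 ± 0.16, edgeR adjusted p = 1.3e-04), and the antagonist gene Angpt2 was below the filter. Tek is itself an endothelial marker and part of the sum given above. Of the other 3 endothelial markers tested, Erg, at 0.405 ± 0.108 CPM with CSE against 5.34 ± 1.01 CPM in the control (SD, n = 3), reached the filter only in the control libraries. Flt1 was lower in a call that 4 of 13 alternatives ended, at an edgeR adjusted p of up to 0.112, and Tie1 did not pass (log2 -0.26 ± 0.19, edgeR adjusted p = 0.218).

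Tnfrsf11b, the osteoprotegerin gene, fell almost as far as Cxcl12. It had 15.4, 16.1 and 17.2 CPM with CSE, against 59.7, 62.0 and 64.4 CPM in the control. The 2 groups were tight and far apart, at 16.3 ± 0.901 CPM with CSE against 62.0 ± 2.36 CPM in the control (SD, n = 3), a 3.82-fold lower level (log2 -1.93 ± 0.07, edgeR adjusted p = 6.8e-14). Tnfsf11, the RANKL gene to which this decoy answers, was listed at 0 in all 6 libraries. A count of 0 allows up to 3 counts, or 0.142 to 0.164 CPM in the CSE libraries and 0.151 to 0.177 CPM in the control libraries, counting error only. Of its 10 nearest named coding neighbours on the RefSeq assembly only 1 was at 0, so the surrounding genes were counted. A ratio of RANKL to osteoprotegerin transcript therefore could not be formed, and only the decoy's side of it was measured.

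The receptor genes of RANKL were lower as well. Tnfrsf11a (RANK), the receptor on osteoclast precursors, had 1.52, 0.982 and 1.55 CPM with CSE, against 6.36, 6.22 and 6.91 CPM in the control (log2 -2.25 ± 0.20, edgeR adjusted p = 1.7e-08). Lgr4, which also binds RANKL and is a receptor for R-spondins, had 54.4, 54.7 and 57.0 CPM with CSE, against 141, 133 and 127 CPM in the control (log2 -1.27 ± 0.05, edgeR adjusted p = 1.0e-12). For both genes the CSE and control libraries were apart. Tnfrsf11a and the osteoclast markers are also genes of blood lineage cells. Of the 6 osteoclast markers, Acp5 (edgeR adjusted p = 5.4e-05) and Mmp9 (adjusted p = 1.3e-04) passed higher and Ctsk did not pass (adjusted p = 0.0555). However, Mmp9 did not pass with total counts alone (edgeR adjusted p = 0.0713) and Ctsk passed lower in 5 of 13 alternatives. Dcstamp was at 0 in every library and Ocstamp had no row. Calcr was below the filter, at a mean of 0.286 CPM with CSE and 0.581 CPM in the control.

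**Figure D2:**
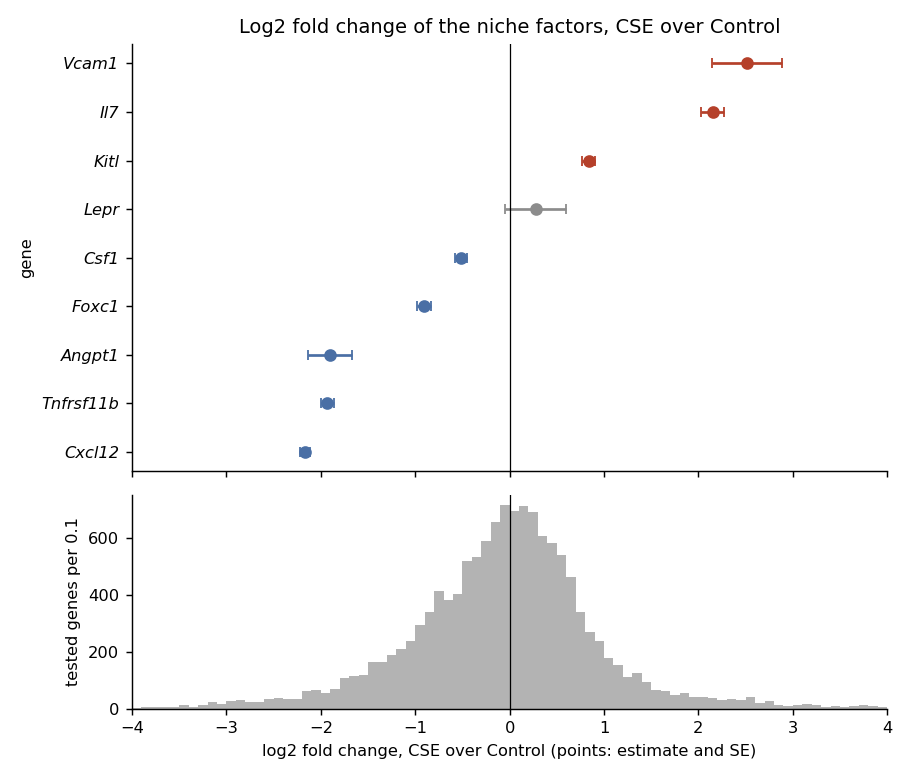
Top, log2 fold change of CSE over control for the 9 tested niche factors (points, bars are SE; red higher, blue lower, grey not past 0.05); bottom, the number of tested genes at each fold change, drawn between -4 and 4. Cxcl12 at -2.17, Tnfrsf11b at -1.93 and Angpt1 at -1.90 lie in the lower tail of all genes, and Il7 at 2.15 and Vcam1 at 2.51 in the upper.

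Vcam1, whose product holds blood cells to stroma, was barely detected in the control. It had 40, 38 and 32 counts in the CSE libraries, against 5, 9 and 4 in the control libraries. These are 1.90, 2.07 and 1.65 CPM with CSE against 0.294, 0.474 and 0.202 CPM in the control, so that all 3 CSE libraries were higher, at a low level. The fold change was 5.71 (log2 2.51 ± 0.37, edgeR adjusted p = 8.6e-06), with the widest error among the genes that passed. Itga4, the alpha chain of the integrin that binds VCAM1, was lower, at 3.84, 4.80 and 4.24 CPM with CSE against 9.01, 9.49 and 9.38 CPM in the control (log2 -1.12 ± 0.14, edgeR adjusted p = 8.9e-07). Itgb1, the beta chain of that integrin and of many others, was higher, at 3279 ± 23.3 CPM with CSE against 2742 ± 119.5 CPM in the control (SD, n = 3; log2 0.26 ± 0.04, edgeR adjusted p = 2.3e-05), a call that ended with total counts alone (adjusted p = 0.113). Icam1, an adhesion gene that NF-kB also induces, was chosen after its value was seen. It averaged 33.1 ± 1.91 CPM with CSE and 33.6 ± 2.38 CPM in the control (SD, n = 3) and did not pass (log2 -0.02 ± 0.07, edgeR adjusted p = 0.808), with its sign turning in 2 of 13 alternatives, while with total counts alone it passed as lower (log2 -0.21, adjusted p = 0.0132).

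Lepr, the marker of the perivascular niche cell in mice, was low in both groups. It had 1.28, 1.04 and 1.34 CPM with CSE, against 1.30, 1.05 and 0.706 CPM in the control. The groups overlapped and the difference did not pass (log2 0.28 ± 0.32, edgeR adjusted p = 0.452), from 72 counts with CSE and 56 in the control. The gene Leprot overlaps Lepr on the RefSeq assembly, with a level of 31.0 ± 2.98 CPM with CSE against 50.4 ± 1.86 CPM in the control (SD, n = 3). How reads shared by both were assigned is not known, so the Lepr level is uncertain. Lep, the leptin gene, had 1 count in all.

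Foxc1, the forkhead factor that keeps niche cells in the stromal state in mice, was lower with CSE. It had 23.9, 25.0 and 23.9 CPM with CSE, against 44.7, 49.97 and 41.5 CPM in the control. The CSE libraries clustered tightly below all control libraries, and the level was 1.87-fold lower (log2 -0.90 ± 0.07, edgeR adjusted p = 6.2e-09). The stromal factor genes Ebf1 and Ebf3, which mark the same niche cells in mice, were not lower. Ebf1 averaged 46.5 ± 0.494 CPM with CSE and 40.7 ± 1.78 CPM in the control (SD, n = 3; log2 0.19 ± 0.06, edgeR adjusted p = 0.0076), a call that ended under upper-quartile scaling, total counts alone and without Control replicate 3 (adjusted p up to 0.941). Ebf3, a close homologue, averaged 7.45 ± 0.414 CPM with CSE and 5.20 ± 1.02 CPM in the control (SD, n = 3; log2 0.52 ± 0.15, edgeR adjusted p = 0.0053), a call that ended with total counts alone (adjusted p = 0.0600).

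**Figure D3:**
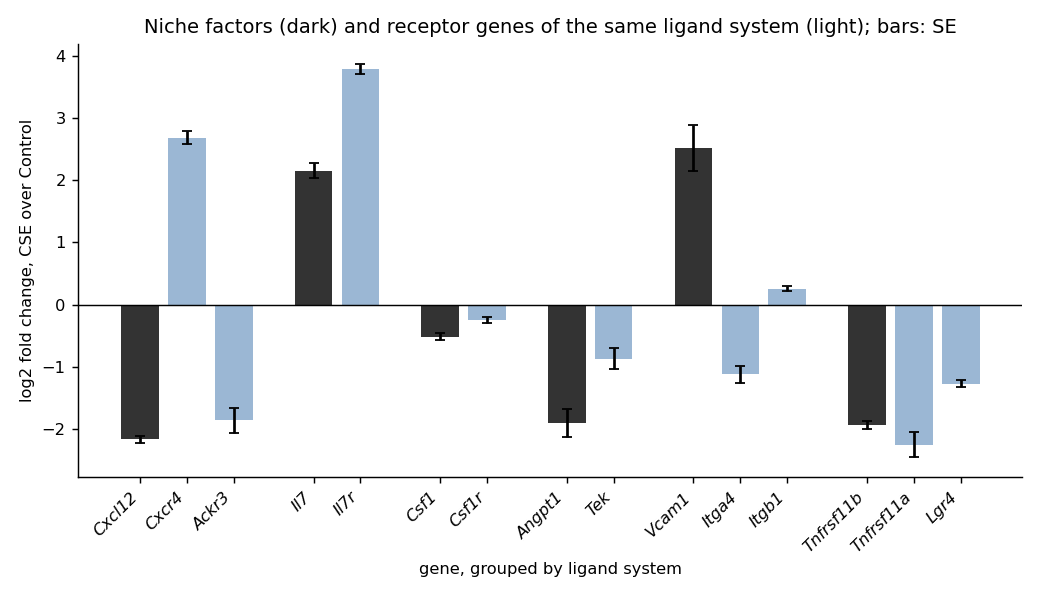
Log2 fold change of CSE over control for 6 niche factors (dark bars) beside receptor genes of the same ligand system (light bars), with SE as error bars; Tnfrsf11b, a decoy for RANKL, stands beside the genes of 2 RANKL receptors. Cxcl12 is opposite in sign to Cxcr4 and alike to Ackr3, Vcam1 is opposite to Itga4 and alike to Itgb1, Il7 with Il7r, Csf1 with Csf1r and Angpt1 with Tek share their sign, and Tnfrsf11b, Tnfrsf11a and Lgr4 are all below 0.

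Wider lists place the 10 genes among their pathway, and each list's share of calls is given beside the 73.9% over all genes. These lists were chosen with earlier results of these data known, so a share above or below 73.9% is description only. Of 24 genes of receptors, proteases and scavengers for these ligands, 19 were tested, 8 were higher, 9 lower and 2 not past the threshold (89.5% called, median log2 -0.25). Beside those given, Mmp14, a membrane protease that can cleave CXCL12, averaged 228 ± 3.50 CPM with CSE and 425 ± 7.37 CPM in the control (SD, n = 3; log2 -0.90 ± 0.04, edgeR adjusted p = 4.2e-12). Socs3, the feedback inhibitor of leptin and interleukin receptors, averaged 26.5 ± 2.49 CPM with CSE and 9.97 ± 0.427 CPM in the control (log2 1.41 ± 0.09, edgeR adjusted p = 3.7e-10). With total counts alone 4 rose and 11 fell. Among the lower, Ptprb, the gene of a phosphatase that acts on TIE2, reached the filter only in the control libraries.

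Of 25 other niche cytokines and membrane ligands, 19 were tested, 3 were higher, 8 lower and 8 not past the threshold (57.9% called, median log2 -0.24), and none of the 3 higher calls held under upper-quartile scaling or total counts alone. The lower genes included Angptl2 (log2 -1.56 ± 0.07), an angiopoietin-like secreted factor, Igf1 (-1.54 ± 0.10), the insulin-like growth factor, and Gas6 (-0.72 ± 0.05), the ligand of the TAM receptors. Jag1, a Notch ligand of the niche, was at -0.32 ± 0.05. The lymphoid and natural killer cell cytokine gene Il15, at 0.238 ± 0.0201 CPM with CSE against 1.82 ± 0.359 CPM in the control (SD, n = 3), reached the filter only in the control libraries. Bmp4, with 21, 21 and 6 counts in the CSE libraries, reached it in every control library but not in every CSE library. The thrombopoietin gene Thpo was at 0 and Flt3lg, Csf2 and Csf3 were below the filter.

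Of 20 regulators and markers of marrow reticular stroma, 19 were tested, 7 were higher, 11 lower and 1 not past the threshold (94.7% called, median log2 -0.46). The BMP antagonist gene Grem1 (log2 -1.92 ± 0.06), the nuclear receptor gene Nr2f2 (-1.96 ± 0.08), the cadherin gene Cdh11 (-1.31 ± 0.05), the mesenchymal factor Prrx1 (-0.95 ± 0.05) and the PDGF receptor gene Pdgfrb (-0.87 ± 0.05) were lower. The adipogenic and myeloid factor gene Cebpa was higher (log2 1.58 ± 0.07), and these 6 kept their calls in all 13 alternatives. Ebf1 and Ebf3, given above, were also among the 7 higher, and the other 4 are named here after their values were seen. Foxc2, a forkhead gene close to Foxc1 (log2 0.60 ± 0.10, edgeR adjusted p = 3.0e-05), and the intermediate filament gene Nes (0.90 ± 0.18, adjusted p = 2.6e-04) were higher in all 13 alternatives. Ebf2 (log2 0.88 ± 0.31, edgeR adjusted p = 0.0154) lost its call in 3 of 13, and Runx1 (0.18 ± 0.05, adjusted p = 0.0074) lost it in 3 and turned sign with total counts alone. The summed level of all 20 was 1258 to 1310 CPM with CSE and 2294 to 2406 CPM in the control. Abundant genes weigh most in that sum, such as Grem1 (mean 111.9 CPM with CSE, 424.2 CPM in the control) and Cdh11 (164.6 and 409.1 CPM). It does not show a fall across the list, in which 7 of the 19 tested were higher. With total counts alone 4 rose and 12 fell.

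Of 20 genes that carry hormone and cytokine signals to Tnfsf11 and Tnfrsf11b, 19 were tested, 7 were higher, 9 lower and 3 not past the threshold (84.2% called, median log2 -0.15). Vdr, through which vitamin D induces RANKL in osteoblast lineage cells, had 5.08, 5.07 and 4.81 CPM with CSE, against 46.6, 43.4 and 47.2 CPM in the control. The WNT receptor gene Fzd1 (log2 -1.74 ± 0.05) and the osteoblast factor gene Sp7 (-4.12 ± 0.12) were lower as well. Among the higher were the receptor genes Il6r (log2 1.42 ± 0.09) and Tnfrsf1a (0.90 ± 0.05) and the transcription factor gene Creb1 (1.17 ± 0.08). The list held strong calls both ways.

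Of 17 adhesion and NF-kB genes, 16 were tested, 8 were higher, 5 lower and 3 not past the threshold (81.2% called, median log2 0.18, or -0.01 with total counts alone). The chemokine genes Cxcl1 and Ccl2 were higher by 4.61 ± 0.13 and 2.59 ± 0.09 on the log2 scale, the NF-kB inhibitor and target gene Nfkbia by 1.48 ± 0.08, and the NF-kB subunit gene Relb by 1.14 ± 0.11. Tnfaip3, Nfkb1 and Nfkb2 are named here after their values were seen. Tnfaip3, likewise an inhibitor and target of NF-kB, was lower (log2 -0.92 ± 0.14, edgeR adjusted p = 1.6e-05, the same call in 13 of 13 alternatives). The subunit genes Nfkb1 (log2 -0.03 ± 0.05, edgeR adjusted p = 0.612) and Nfkb2 (0.11 ± 0.07, adjusted p = 0.144) did not pass, and the sign of each turned in at least 1 alternative. The hyaluronan receptor gene Cd44 averaged 874 ± 32.3 CPM with CSE and 411 ± 13.2 CPM in the control (SD, n = 3), whereas the neural cell adhesion gene Ncam1 averaged 127 ± 3.58 CPM with CSE and 285 ± 4.06 CPM in the control. Adhesion genes stood on both sides of 0. Icam2, among the lower (edgeR adjusted p = 7.0e-04), reached the filter in every control library but not in every CSE library, where it had 3, 7 and 14 counts. Among the other genes of the 5 wider lists that are given without a p, the highest edgeR adjusted p was 1.03e-05, that of Jag1.

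**Figure D4:**
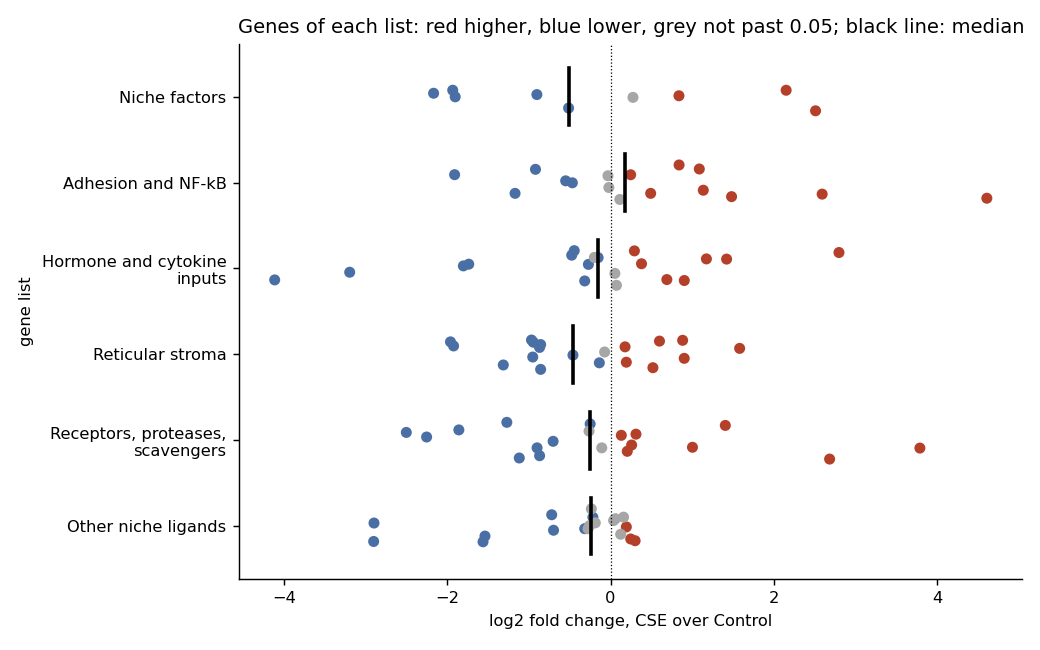
Log2 fold change of CSE over control for each tested gene of the niche factors and 5 wider lists (points; red higher, blue lower, grey not past 0.05; vertical spread within a list is only for legibility), with each list's median as a black line. Every list has points on both sides of 0, and the medians run from -0.51 for the niche factors to 0.18 for the adhesion and NF-kB genes.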

How the data were processed

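The deposited table holds raw read counts per gene symbol for 6 libraries, as whole numbers with no normalization by the authors. The submitters' processing notes name HISAT2 2.0.4 and Rnor_6.0, without their roles. The sources used here do not say how reads were counted, on which annotation or with what strand setting, so a gene and an overlapping or antisense neighbour may share reads. On the RefSeq assembly Lepr, Angpt1, Csf1 and Il7 are each overlapped by 1 gene, which for Csf1 and Il7 has no row. Columns were matched to samples by title. Symbols were checked against RefSeq's table of GRCr8, which is not the build of the counts. Genes were filtered with filterByExpr, scaled with TMM and tested across all genes with edgeR 4.0.16 (quasi-likelihood F test, 2-sided, Benjamini-Hochberg) in R 4.3.3; SE is the size of the log2 fold change over the square root of F. DESeq2 1.42.0, limma-voom (limma 3.58.1), other scalings, filters and libraries left out were alternatives. The fit was tested on counts drawn from the libraries' own means, for CSE against control over 13187 genes. Of 50 genes changed at each size, 52% were recovered at 1.25-fold, 80% at 1.5-fold and 86% at 2-fold, with 12 false calls. Far fewer genes were changed in it than the 73.9% that passed here. It therefore does not test the scaling under so broad a difference. No 2 libraries agreed within sampling noise (chi-square per degree of freedom at least 3.24). The members, the 5 wider lists and the cell markers were chosen with earlier results of these data known. All members are named; of each list, up to 6 genes with the smallest p and the direct receptors or partners of a member, and further genes where the text says that they were chosen after their values were seen.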

Additional observations from a re-analysis of the deposited data

How the results depend on the processing

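All 13 alternatives left each of the 9 tested niche factors with the sign and the side of the threshold given above, and the counts of all genes called higher or lower stayed within 1.5 times. Upper-quartile scaling and total counts alone moved the median of all genes to -0.15 and -0.21 on the log2 scale, against -0.02, and the portion of called genes that were higher to 40.3% and 37.2%, against 49.2%. Leaving out 1 library at a time, Cxcl12 ranged from -2.20 to -2.11, Kitl from 0.77 to 0.91, Il7 from 2.12 to 2.20, Vcam1 from 2.24 to 2.89, Angpt1 from -1.99 to -1.78, Csf1 from -0.56 to -0.42, Foxc1 from -0.98 to -0.84, Tnfrsf11b from -1.97 to -1.89 and Lepr, never past the threshold, from 0.05 to 0.47. The labels do not say whether a shared replicate number pairs 2 libraries. Deviations of same-numbered libraries correlated at 0.02, -0.03 and 0.00094, which with 3 libraries per group cannot settle it. A fit with the replicate block gave Cxcl12 -2.17, Kitl 0.84, Il7 2.15 and Tnfrsf11b -1.93. Depth limits Vcam1 and Lepr, with 18 and 56 control counts, and Angpt1, with 64 CSE counts. Of Tnfsf11 it says only that it lay under the limit of 3 counts.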
